A study of Mus musculus with 18 samples.

Results

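The genes described here are the laminin and integrin genes of the mouse, which encode the chains of the main adhesive proteins of the basement membrane and the chains of the receptors that bind them. They were chosen by gene symbol: Lama, Lamb or Lamc with a digit, Itga with a number or one of the letters d, e, l, m, x and v, and Itgb with a number from 1 to 8. The symbols matched 44 rows, 8 of them of Itgam, which left 37 genes (11 laminins and 26 integrins) of 46257 gene IDs. RNA had been sequenced from estrogen receptor positive (ER+) luminal cells, estrogen receptor negative (ER-) luminal cells and basal cells, sorted from the mammary gland at puberty, in adults and in mid pregnancy, with 2 libraries in each of the 9 groups. Mice of every group carried the genotype ERrtTA/TetOCre/rosaYFP, names that denote a tetracycline-controlled activator, a Cre recombinase under its control and a fluorescent reporter, so no group was free of these transgenes. No source used here gives ages, sorting gates, doxycycline treatment or the number of mice behind a library. Nor do the labels tie replicates to separate animals, and p-values then reflect no more than the scatter among these libraries, which can be technical.

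Laminins are heterotrimers of an alpha, a beta and a gamma chain. Laminin-332 holds the chains of Lama3 and Lamb3, laminin-111 those of Lama1, Lamb1 and Lamc1, and laminin-511 those of Lama5, Lamb1 and Lamc1. Secreted laminins polymerise into the sheet on which the mammary epithelium rests, and basal cells, the contractile cells around the duct, lie directly on it. Integrins are receptors of an alpha and a beta chain. Pairs of alpha 3 or alpha 6 with beta 1 bind laminin, alpha 6 with beta 4 anchors cells to laminin-332 in hemidesmosomes, and other pairs bind collagen, fibronectin or sites with the tripeptide RGD.

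Values are read counts scaled to a common library total of 20000000, as deposited, and are given for both libraries of a group, replicate 1 first. Log2 fold changes are of value + 1, carry a standard error (±), and were called at a limma adjusted p under 0.05 over 22315 genes. Shares of all genes are at this threshold with all libraries. Counts of members at an unadjusted p under 0.05, or by edgeR or DESeq2, have no matching share of all genes beside them. Of the members, 36 were tested. Itgad, a leukocyte alpha chain, was not, since it was listed at 0 in all libraries but 2 of ER+ luminal cells, at 8 in each.

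The libraries differed in ways that touch these genes. Depth was 7674870 to 11292227 reads in genes at puberty, 5280331 to 6363515 in pregnancy, 7900552 and 4233222 in adult basal cells, and 2406221 to 3165232 in the adult luminal groups, where 1 read is worth 6.26 to 8.25. The order of repeated rows showed that the table was joined from 3 sets of libraries: all puberty libraries with the adult basal ones, the pregnancy libraries, and the adult luminal ones. Comparisons of pregnancy with another stage therefore cross sets, and set and stage cannot be told apart there. Basal against luminal in adults also crosses sets, and in it set and cell population cannot be told apart. The cell type label reads basal cells for the adult basal libraries and BC luminal cells for those of puberty and pregnancy. The summed value of 8 basal markers (among them Krt5, Krt14 and Acta2) was 141611 to 311384 in these 6 libraries and 880 to 38186 in the 12 luminal ones, so groups follow the titles. The sum was 26018 to 38186 in the luminal libraries of pregnancy, 2238 to 4860 in adult luminal and 880 to 13467 in puberty luminal libraries, with replicate 1 at 13467 (ER-) and 12236 (ER+) and replicate 2 at 3057 and 880. In bulk samples, fewer cells of a type and less RNA per cell cannot be told apart.

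The library labelled pregnancy ER+ luminal replicate 2 stood apart from the other ER+ luminal libraries. Its summed value was 29593 for 8 ER+ luminal markers (among them Esr1, Pgr and Prlr) and 110074 for 8 ER- luminal markers (among them Elf5, Kit and Csn3), of which the milk protein gene Csn3 made up 81581. Replicate 1 had 75812 and 42985, and the ER+ luminal libraries of the other stages had 170731 to 215610 and 8324 to 13309. The pregnancy ER- luminal libraries had ER+ sums of 6127 and 6819, below both pregnancy ER+ ones, and ER- sums of 114446 and 47839. Without Csn3 the ER- sum of replicate 2 was 28493, against 12470 in replicate 1 and 33404 and 34652 in the pregnancy ER- libraries. Calls of members in comparisons with pregnancy ER+ cells are therefore given with and without it. Summed markers of fibroblasts (Col1a1, Col3a1, Dcn and 5 others), which make laminins and collagen-binding integrins, were 16185 to 158516 in basal, 14846 to 66188 in ER- luminal and 6931 to 81506 in ER+ luminal libraries. Those of endothelial cells (Pecam1, Cdh5 and 6 others) were 5074 to 14714, 574 to 10339 and 991 to 11642. None of these fibroblast genes was listed at 0 in both libraries of any group. Summed markers of adipocytes (among them Adipoq and Plin1) were 414 to 9216 in puberty libraries and 8 to 104 in adult and pregnancy ones. Comparisons of puberty with another stage therefore come with this difference, and its part in the members' values was not tested.

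Laminin and integrin genes were higher in basal than in luminal cells for most members. Averaged over the 3 stages, 27 of 36 were called higher in basal cells and 1 lower (Itgb6), where 20.9% of all genes tested were called higher and 21.5% lower. The median log2 difference of the members was 1.29, against -0.03 over all genes. At puberty, within 1 set of libraries, 21 members were higher and 1 lower (11.3% and 10.2% of all genes). In pregnancy, also within 1 set, 19 were higher and 1 lower (8.64% and 11.1%), or 18 and 2 without pregnancy ER+ luminal replicate 2. In adults, across sets, 24 were higher and 0 lower by limma (18.6% and 12.3%; 1 lower at an unadjusted p under 0.05). Markers of other cells moved the same way over stages: 6 of 6 pericyte, 7 of 8 endothelial, 5 of 8 fibroblast and 3 of 10 leukocyte markers were called higher in basal cells. Their part in the members' differences was not tested. At puberty 4 of 6 pericyte, 0 of 8 endothelial and 0 of 8 fibroblast markers were called higher. In adults these counts were 5, 8 and 2, and in pregnancy 4, 0 and 4, or 1, 0 and 2 without pregnancy ER+ luminal replicate 2.

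Lama3 and Lamb3, which encode chains of laminin-332, the ligand of hemidesmosomes, were higher in basal than in luminal libraries at every stage. Lama3, its alpha chain (chromosome 18, 12333819 to 12583013, plus strand; positions are of build GRCm38), read 20805 and 15363 in puberty basal, 12987 and 15230 in adult basal and 16393 and 16302 in pregnancy basal libraries. The luminal libraries lay far below these, at 1173 to 3100 (median 2329) in ER- and 272 to 1591 (median 640) in ER+ cells. Lama3 was 3.81 ± 0.24 higher in basal cells on the log2 scale (adjusted p = 2.65e-07), and no luminal library reached a basal one. Lamb3, its beta chain (chromosome 1, 193207699 to 193343878, plus strand), read 7729 and 8766, 6321 and 6047, and 9017 and 9070 in basal libraries of puberty, adults and pregnancy. ER- luminal libraries had 1175 and 1113, 968 and 752, and 3415 and 4446, and ER+ luminal libraries 471 and 313, 311 and 380, and 1569 and 2632. The basal libraries lay between 6047 and 9070, while luminal levels were highest in pregnancy. The Lamb3 difference over stages was 2.94 ± 0.12 (adjusted p = 5.92e-11), 3.63 ± 0.21 at puberty and 1.68 ± 0.21 in pregnancy.

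The chains of laminin-111 were also higher in basal cells. Lama1, an alpha chain best known from the early embryo (chromosome 17, 67697259 to 67822647, plus strand), read 20440 and 13644, 12512 and 4875, and 28406 and 26570 in basal libraries of puberty, adults and pregnancy. In ER- luminal libraries it read 322 and 190, 525 and 376, and 3365 and 3868, and in ER+ luminal libraries 340 and 83, 210 and 190, and 2888 and 2513. Its basal-luminal difference of 4.73 ± 0.29 (adjusted p = 3.44e-07) exceeded that of every other member tested. It was 6.35 ± 0.51 at puberty and 3.14 ± 0.51 in pregnancy. Lamb1, a beta chain shared by laminin-111 and laminin-511 (chromosome 12, 31265234 to 31329644, plus strand), read 15413 and 11778, 6240 and 4983, and 14935 and 13716 in basal libraries, and 487 to 3512 in luminal ones. Lamc1, the gamma chain of most laminins (chromosome 1, 153218922 to 153332786, minus strand), read 26856 and 22098, 13201 and 9816, and 41052 and 36007 in basal libraries. Among luminal libraries of Lamc1, pregnancy ER+ replicate 1 stood out at 15626, above both adult basal libraries, with replicate 2 at 7866 and the other 10 at 2879 to 6834. Those 2 pregnancy ER+ libraries had summed fibroblast markers of 81506 and 39607, the pregnancy ER- ones 24665 and 21215; the part of fibroblasts was not tested. Over stages, Lamb1 was 2.82 ± 0.11 and Lamc1 2.18 ± 0.12 higher in basal cells (adjusted p = 5.03e-11 and 5.74e-09).

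Lamc3, Lama2, Lama4 and Lamb2 were also higher in basal cells. Lamc3, a gamma chain of low level, read 299 and 406, 611 and 291, and 1278 and 1431 in basal libraries and 8 to 237 in luminal ones, a difference of 3.35 ± 0.27. Lama2, the alpha chain of the laminin of muscle and stroma, read 2560 and 2363, 626 and 910, and 5530 and 4411 in basal libraries. In ER- cells it read 718 and 2261, 566 and 608, and 741 and 616, and in ER+ cells 374 and 1544, 156 and 256, and 2108 and 1047. Within both puberty luminal groups replicate 2 exceeded replicate 1 in Lama2, and the summed fibroblast markers did the same (66188 against 14846, and 61155 against 18318). Lama2 differed by 1.59 ± 0.33 over stages (adjusted p = 0.00245) with overlapping libraries. Lama4, a chain of vessels and stroma (chromosome 10, 38965515 to 39110188, plus strand), read 3617 and 2495, 1548 and 1397, and 3860 and 3547 in basal libraries. In ER- cells it read 2336 and 2354, 1473 and 1047, and 1541 and 1623, and in ER+ libraries 124 to 1245. Lama4 differed by 1.52 ± 0.11 over stages. The ER- libraries overlapped the basal ones, in adults too, while all ER+ ones lay below them. Lamb2, the beta chain of neuromuscular and kidney laminins, read 6348 and 6412, 5168 and 4458, and 6906 and 6567 in basal libraries against 2292 to 4011 in all luminal ones, a difference of 1.06 ± 0.09 (adjusted p = 2.21e-07).

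Lama5, the alpha chain of laminin-511 and the widespread epithelial laminin chain (chromosome 2, 180176373 to 180225859, minus strand), had no basal-luminal call. It read 10259 and 9184, 5647 and 5663, and 5559 and 5030 in basal libraries of puberty, adults and pregnancy. ER- libraries had 5285 and 3877, 4104 and 5526, and 4156 and 5077, and ER+ libraries 12122 and 10687, 10083 and 13608, and 14313 and 7069. The ER+ libraries were above every ER- library and above every basal library of adults and pregnancy. The puberty basal ones lay within the ER+ range, whose lower end of 7069 was pregnancy ER+ replicate 2. The next ER+ value was 10083, above puberty basal replicate 2 at 9184. At puberty both ER+ libraries were above both basal ones. The basal-luminal difference over stages was -0.11 ± 0.13 (adjusted p = 0.551). In pregnancy it was -0.36 ± 0.23 (adjusted p = 0.314), and without pregnancy ER+ luminal replicate 2 it was called, at -0.62 ± 0.18 (adjusted p = 0.0293).

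**Figure D1:**
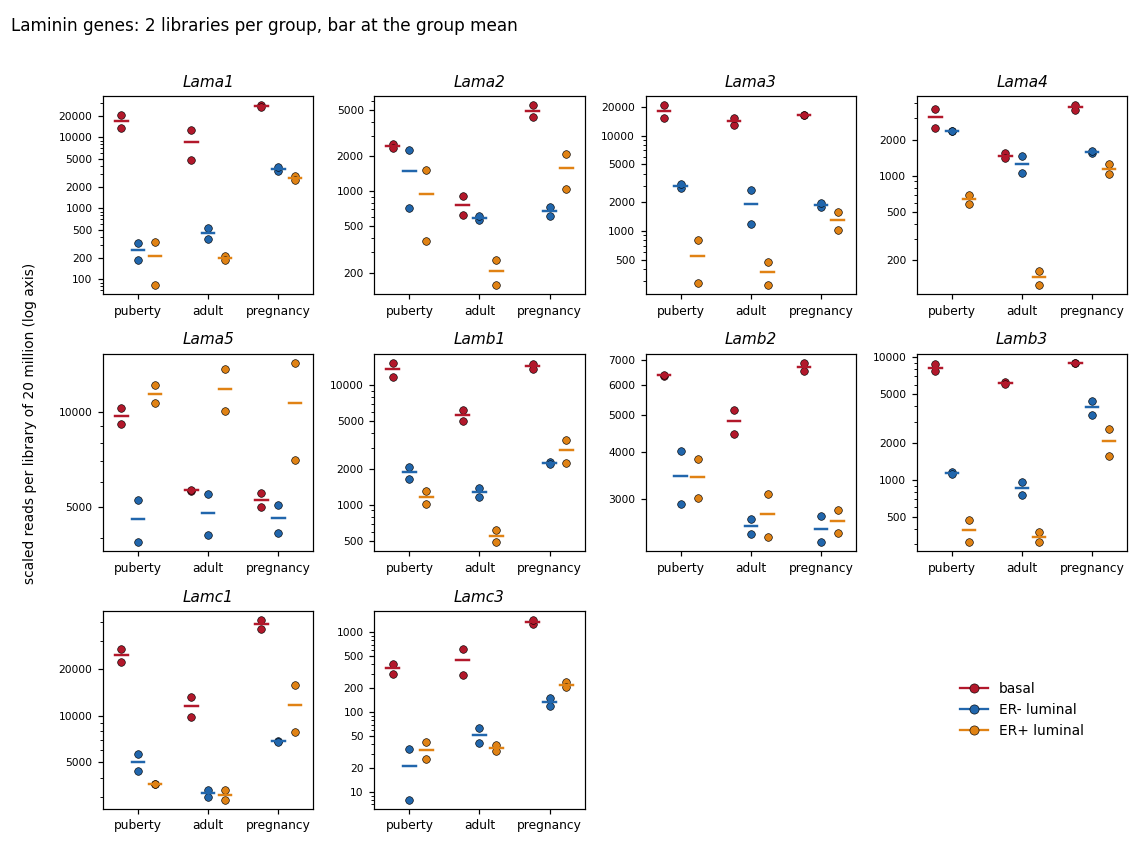
Scaled read counts of 10 laminin genes on a log axis by stage for basal, ER- luminal and ER+ luminal cells; each point is a library and each bar the mean of the 2 libraries of a group. Basal points lie above luminal ones for Lama3, Lamb3 and Lama1, while for Lama5 the ER+ luminal libraries are at 7069 to 14313 and the ER- ones at 3877 to 5526.

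The promoters of the chains with the 2 opposed patterns, basal Lamb3 and ER+ luminal Lama5, are shown as the 250 bases before the RefSeq start of each gene (build GRCm38.p6), with CpG dinucleotides in capitals. Lamb3 starts from chr1:193301744-193301993 (plus strand) and Lama5 from chr2:180225860-180226109 (minus strand), both written 5′ to 3′ on the strand of the gene.
Lamb3: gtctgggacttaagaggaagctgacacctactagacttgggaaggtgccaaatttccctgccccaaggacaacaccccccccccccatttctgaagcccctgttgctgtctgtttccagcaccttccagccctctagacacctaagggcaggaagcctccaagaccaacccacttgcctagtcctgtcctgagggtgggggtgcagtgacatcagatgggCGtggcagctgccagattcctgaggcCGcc
Lama5: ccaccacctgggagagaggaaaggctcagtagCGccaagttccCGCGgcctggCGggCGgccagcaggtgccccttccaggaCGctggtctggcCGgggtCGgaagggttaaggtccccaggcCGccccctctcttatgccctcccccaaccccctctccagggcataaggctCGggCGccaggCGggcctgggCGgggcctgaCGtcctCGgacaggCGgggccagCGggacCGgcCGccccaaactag
The Lamb3 window held 2 CpG and 58.8% G and C, and the Lama5 window 19 CpG and 72.4%, where the median over 32817 promoter windows of that length was 6 CpG with quartiles of 2 and 16. Searched on both strands, AP-1 (TGANTCA), TEAD (GGAATG) and STAT5 (TTCNNNGAA) motifs were in neither window. They were in 6.75%, 12.6% and 7.02% of all windows, and in 1, 3 and 2 of the 26 windows that matched 23 of the 37 members. Members holding one were Itgax (AP-1), Itgb1, Itga10 and a second Lamb3 window (TEAD), and Itga10 and Lamb2 (STAT5).

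Per kilobase of exon, the scale on which levels of different genes can be set side by side, the 3 populations held different mixes of chains. Among the 5 alpha chain genes in basal cells, Lama1 had 37.4%, 31.2% and 52.2% of the summed level at puberty, in adults and in pregnancy, and Lama3 had 35.8%, 45.6% and 28.0%. In ER+ luminal cells Lama5 had 84.4%, 92.9% and 61.3% (64.9% in pregnancy replicate 1 alone), and in ER- luminal cells 40.6%, 53.5% and 36.0%. The rest in ER- cells was mostly Lama3 (27.8%, 22.8% and 15.6%), Lama4 (19.6%, 13.2% and 11.6%) and, in pregnancy, Lama1 (33.2%). Lama5 was thus the leading alpha chain of ER+ and ER- cells at every stage, whereas in basal cells its share was 18.2%, 17.3% and 8.6%. Among beta chains, Lamb2 led in puberty and adult luminal cells, with 76.1% and 80.6% in ER+ and 61.1% and 61.7% in ER- cells. Lamb3 led in pregnancy ER- cells, at 48.4%. These shares are descriptions of group means, with no test.

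**Figure D2:**
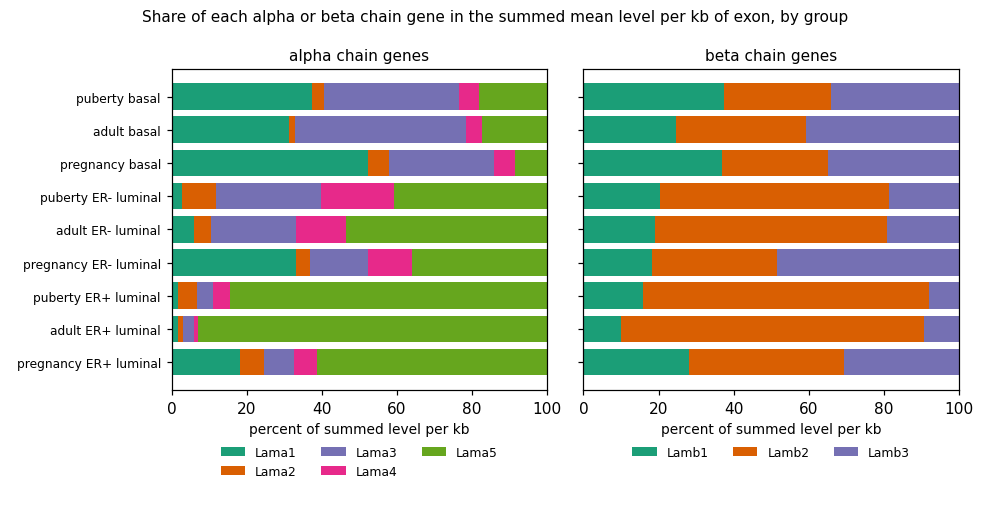
Share of each gene in the summed level per kilobase of the alpha and of the beta laminin chains, as percent of group means in the 9 groups. Lama5 takes 84.4%, 92.9% and 61.3% of the alpha chains in ER+ luminal cells and 8.6% to 18.2% in basal cells.

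Laminin-binding integrin genes were higher in basal cells with the exception of Itgb4. Itga6, an alpha chain that pairs with beta 1 or beta 4 and is widely used to sort mammary basal cells as CD49f (chromosome 2, 71745616 to 71858416, plus strand), read 32377 and 28047, 22565 and 18329, and 35892 and 33010 in basal libraries of puberty, adults and pregnancy. Luminal libraries had 8621 and 6524, 8446 and 7355, and 15440 and 16510 (ER-), and 14006 and 10456, 7338 and 9064, and 15061 and 14334 (ER+), all below each basal library. The difference was 1.39 ± 0.09 (adjusted p = 6.47e-09). Since no source used here gives the gates, it cannot be said whether this gene took part in the sort. Itgb1, the beta chain shared by most of these alpha chains, had the highest level per kilobase of all members in 8 of the 9 groups, the exception being Lamc1 in pregnancy basal cells. It read 19622 and 18866, 12809 and 12586, and 17131 and 16222 in basal libraries. It read 10379 and 9660, 6578 and 6497, and 7503 and 8685 in ER- libraries, and 11146 and 10317, 7640 and 7349, and 10409 and 8108 in ER+ libraries. The basal excess of Itgb1 was 0.90 ± 0.06, and 0.89 ± 0.11, 0.86 ± 0.11 and 0.95 ± 0.11 within the 3 stages. Itga3, whose pair with beta 1 binds laminin-332 and laminin-511, read 6611 and 6708, 4253 and 4618, and 8678 and 7173 in basal libraries. It was at 1677 to 2582 (median 2142) in ER- and 1712 to 4485 (median 3041) in ER+ ones, and the difference was 1.31 ± 0.09. Itga7, a laminin receptor best known from muscle, read 467 and 600, 209 and 249, and 201 and 222 in basal libraries and 21 to 421 in luminal ones. Its difference of 1.90 ± 0.42 (adjusted p = 0.00268) came with overlap between libraries. Puberty luminal replicates 1 had 421 (ER-) and 252 (ER+), replicates 2 had 60 and 50, beside basal marker sums of 13467, 12236, 3057 and 880. Endothelial sums in that order were 10339, 11642, 2026 and 1287, and pericyte sums 3658, 4178, 853 and 593. Adipocyte sums were 4489, 2751, 816 and 414. In pregnancy luminal libraries, with basal sums of 26018 to 38186, Itga7 read 95 and 76 (ER-) and 107 and 75 (ER+). The puberty basal libraries, at 467 and 600, had basal sums of 311384 and 266545. The part of other cells was not tested.

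Itgb4, the hemidesmosome beta chain that pairs with alpha 6 alone (chromosome 11, 115974709 to 116008412, plus strand), changed its order between the stages. Basal libraries read 5518 and 4634 at puberty, 2088 and 2888 in adults and 1759 and 1550 in pregnancy. ER- luminal libraries read 3756 and 2684, 3504 and 3496, and 2796 and 3485, and ER+ luminal libraries 3566 and 3272, 2987 and 3002, and 2617 and 2823. At puberty both basal libraries were above all luminal ones (0.62 ± 0.16, adjusted p = 0.0112), and in pregnancy both were below them (-0.82 ± 0.16, adjusted p = 0.00237; -0.79 ± 0.18 and 0.00804 without pregnancy ER+ luminal replicate 2). In adults the difference was -0.40 ± 0.16 (adjusted p = 0.0721), and over stages -0.20 ± 0.09 (adjusted p = 0.0967). Its partner Itga6 kept the basal excess at all 3 stages, at 1.66 ± 0.15, 1.34 ± 0.15 and 1.17 ± 0.15.

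Among integrins for other ligands, 2 alpha chains were mainly basal. Itga1, a collagen receptor chain of smooth muscle and stroma, read 3475 and 3236, 1272 and 1079, and 2694 and 3050 in basal libraries. Its luminal values were 541 and 97, 14 and 76, and 448 and 470 in ER- libraries, and 435 and 50, 39 and 25, and 453 and 320 in ER+ libraries. The difference of 4.03 ± 0.52 (adjusted p = 0.000112) was called at puberty and in adults, but not in pregnancy (2.77 ± 0.90, adjusted p = 0.0542). Itga9, a receptor chain for tenascin and osteopontin, read 2558 and 2108, 1078 and 2232, and 969 and 891 in basal libraries against 24 to 380 in luminal ones, a difference of 3.60 ± 0.39. Within pregnancy the call was lost without pregnancy ER+ luminal replicate 2 (2.46 ± 0.75, adjusted p = 0.0512). Luminal levels of both genes at puberty were higher in replicate 1 (Itga9 380 and 227) than in replicate 2 (271 and 24), as were the basal marker sums given above and those of endothelial cells (10339 and 11642 against 2026 and 1287). Itga2, the other collagen receptor chain of epithelia, showed less contrast. It read 1424 and 1003, 1505 and 943, and 1387 and 1163 in basal libraries, 935 and 923, 1255 and 1335, and 757 and 872 in ER- and 530 and 419, 148 and 462, and 275 and 507 in ER+ libraries. Its difference was 1.03 ± 0.21 (adjusted p = 0.00168), and the basal and ER- libraries overlapped.

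RGD-binding integrins followed different patterns. Itga8, whose pair with beta 1 binds nephronectin, read 3429 and 3218, 2985 and 2471, and 3636 and 2709 in basal libraries, and its group means were in the order basal, ER-, ER+ at each stage. ER- libraries had 2679 and 2282, 1187 and 1316, and 996 and 984, ER+ libraries 572 and 161, 101 and 207, and 627 and 704. The basal-luminal difference was 2.19 ± 0.23. Itgb3, a beta chain that pairs with alpha v, read 1668 and 1202, 1025 and 610, and 2289 and 2332 in basal libraries. Luminal values were 1156 and 1007, 416 and 577, and 283 and 226 in ER- ones, and 666 and 293, 132 and 124, and 228 and 181 in ER+ ones. The Itgb3 difference was 2.01 ± 0.17 over stages, 1.03 ± 0.29 at puberty and 3.34 ± 0.29 in pregnancy. Itgb8, the alpha v partner that activates latent TGF-beta, was shared by basal and ER- cells. It read 3504 and 2756, 3166 and 3432, and 1696 and 2126 in basal, 3656 and 4075, 2945 and 3189, and 2319 and 3410 in ER-, but 431 and 233, 202 and 429, and 942 and 2061 in ER+ libraries. Itgav itself, the common alpha v chain, read 10571 to 14835 (median 12494) in basal, 4738 to 7493 (median 6293) in ER- and 4840 to 6905 (median 6330) in ER+ libraries, a difference of 1.00 ± 0.08 (adjusted p = 1.22e-07). Itga5, the fibronectin receptor chain, was at 985 to 1400, 185 to 428 and 349 to 841, and differed by 1.35 ± 0.18. Itgb6, an epithelial alpha v partner, was the member lower in basal cells. It was at 209 to 558 (median 296) in these against 468 to 834 (median 704) in ER- and 295 to 551 (median 388) in ER+ libraries. Its difference was -0.71 ± 0.14, with a call at puberty (-1.58 ± 0.24) and none in adults (0.07 ± 0.24) or pregnancy (-0.62 ± 0.24, adjusted p = 0.0755). Itgb5 differed by 0.33 ± 0.10 (adjusted p = 0.0139), a call that was lost without adult basal replicate 2 (0.28, adjusted p = 0.0563).

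**Figure D3:**
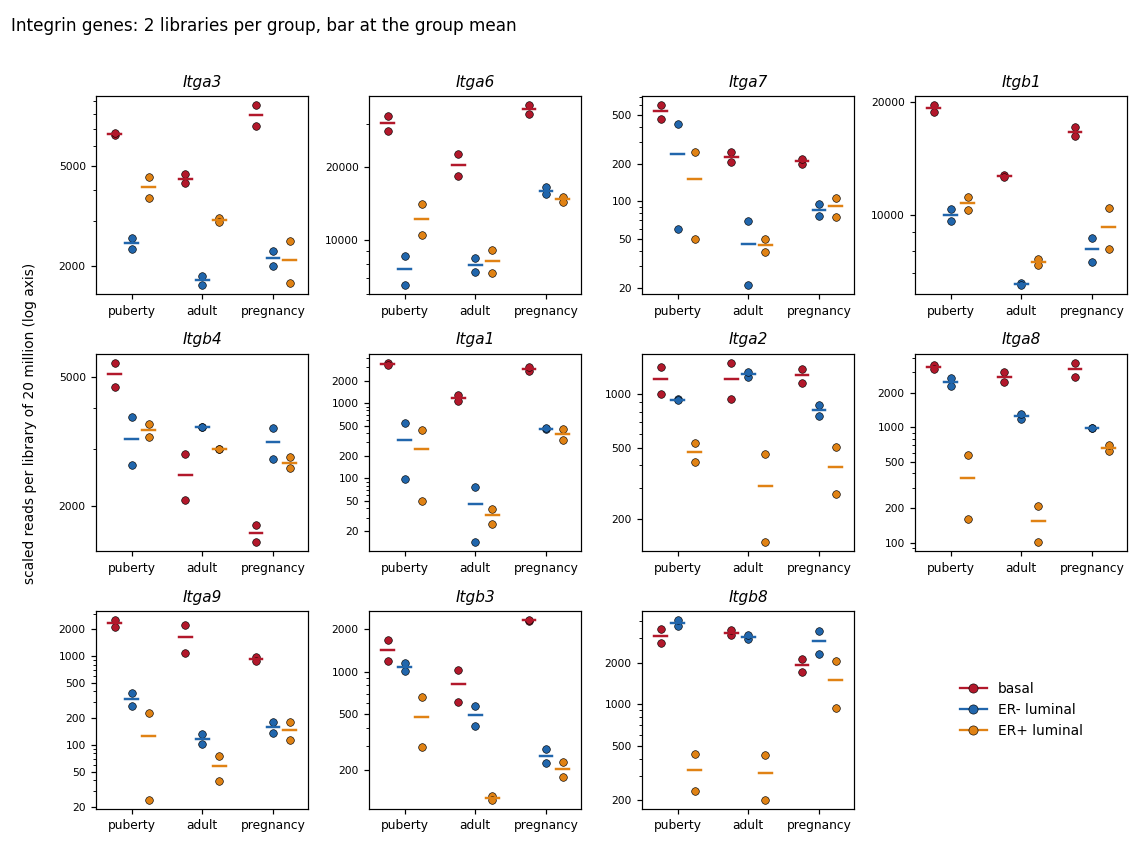
Scaled read counts of 11 integrin genes on a log axis by stage and population; points are libraries and bars the mean of the 2 libraries of a group. Itgb4 in basal cells goes from 5518 and 4634 at puberty to 1759 and 1550 in pregnancy, and Itgb8 is at 202 to 431 in ER+ cells before pregnancy and at 942 and 2061 in pregnancy.

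Between the luminal populations, over stages, 5 members were called higher in ER+ cells and 12 lower, where 10.3% and 15.2% of all genes were called. The median difference of the members was -0.45, against -0.11 over all genes. Among the higher ones were Lama5 (1.25 ± 0.16, adjusted p = 4.49e-05), Itga5 (1.11 ± 0.20), Itga3 (0.50 ± 0.10) and Itgb5 (0.44 ± 0.12). Of the lower ones, Itgb8 (-2.66 ± 0.23, adjusted p = 4.95e-06), Itga8 (-2.23 ± 0.26) and Itga2 (-1.47 ± 0.25) had no overlap between ER+ and ER- libraries. How many of all genes lacked such overlap was not counted. Lama3 (-1.83 ± 0.28), Lama4 (-1.82 ± 0.12, adjusted p = 1.15e-07), Lamb3 (-1.27 ± 0.14), Itgb3 (-1.18 ± 0.19), Itgb6 (-0.79 ± 0.16) and Lamb1 (-0.52 ± 0.13) were lower with overlapping libraries across stages. Among the leukocyte and low members Itgax and Itga4 were also lower, as was Itga10 (-0.92 ± 0.30), whose call was lost without each of 7 libraries, at adjusted p of 0.0629 to 0.102. Without pregnancy ER+ luminal replicate 2, 6 were higher and 12 lower, Itgb1 (0.22 ± 0.07) being the addition. Beside these, 0 of 8 fibroblast, 0 of 8 endothelial and 4 of 10 leukocyte markers were called, the latter all lower in ER+ cells.

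Within single stages, members called between the luminal populations were most numerous in adults and fewest in pregnancy. At puberty 5 members were higher and 7 lower in ER+ cells (5.59% and 6.84% of all genes). In adults 4 were higher and 11 lower (5.49% and 11.5%). Lama4 read 2336 and 2354 in ER- against 692 and 582 in ER+ cells at puberty (-1.88 ± 0.21) and 1473 and 1047 against 163 and 124 in adults (-3.12 ± 0.21, adjusted p = 5.55e-07). For Lama3 the same pairs were 2824 and 3100 against 809 and 288 (-2.61 ± 0.48) and 1173 and 2701 against 272 and 471 (-2.31 ± 0.48), and both ER+ libraries were below both ER- ones. Itgb8 differed by -3.60 ± 0.41 and -3.38 ± 0.41, and Itga6 was called higher in ER+ cells at puberty, by 0.69 ± 0.17 (adjusted p = 0.0136). In pregnancy 2 members were higher and 0 lower by limma, where 1.64% and 0.211% of all genes were called. At an unadjusted p under 0.05, 7 members were lower, a threshold with no share of all genes beside it. The 2 higher members were Lama5 at 1.13 ± 0.27 (adjusted p = 0.04997) and Itgb5 at 0.85 ± 0.20 (0.0411). Without pregnancy ER+ luminal replicate 2 these were 1.64 ± 0.23 (0.00102) and 1.10 ± 0.23 (0.0126), and Lamc1 was higher (1.20 ± 0.20, adjusted p = 0.00392) and Lamb3 lower (-1.31 ± 0.25, adjusted p = 0.00755) in ER+ cells as well.

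Stage comparisons within basal cells gave few calls. Between puberty and adults, which stand in 1 set of libraries, 7 members were higher at puberty and 2 lower, where 4.58% and 5.15% of all genes were called. Higher were Lamb1 (1.27 ± 0.22, adjusted p = 0.00314), Lamc1 (1.10 ± 0.25), Itgb4 (1.04 ± 0.19, adjusted p = 0.0035), Lama4 (1.03 ± 0.21), Itgb1 (0.60 ± 0.13), Itga3 (0.59 ± 0.17) and Itga6 (0.57 ± 0.17). Lower were Itga2b, the platelet alpha chain (108 and 105 against 299 and 282, -1.44 ± 0.41), and Itgb6 (213 and 209 against 558 and 413, -1.18 ± 0.27). Platelet and megakaryocyte marker sums were 52 and 127 at puberty and 46 and 129 in adults, with 0 of 4 tested markers called. Luminal libraries had 91 to 257 of Itga2b. None of the 9 calls was kept without puberty basal replicate 1 (Lamb1 1.08, adjusted p = 0.0565, and Itgb4 0.92, adjusted p = 0.0594), and 3 were kept without adult basal replicate 2. The adult basal libraries also had higher pan-luminal marker sums, at 63733 and 51396 against 17185 and 43048 at puberty. Their ER- luminal sums were 46136 and 24707 against 4762 and 7802. ER+ luminal sums overlapped, at 9415 and 21693 against 7056 and 33655. Fibroblast sums were lower in adults, at 21695 and 16185 against 67038 and 63672, and adipocyte sums too, at 52 and 40 against 3560 and 9216. Called lower at puberty were 1 of 6 pan-luminal, 5 of 8 ER- luminal and 0 of 8 ER+ luminal markers. Called higher were 4 of 5 adipocyte and 1 of 8 fibroblast markers. The part of these cells in the members' values was not tested.

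In basal cells, Itgb4 was the member called between pregnancy and puberty, where 0 were higher by limma and 1 lower, and 0.668% and 1.40% of all genes were called. At an unadjusted p under 0.05, 3 were higher and 3 lower, and edgeR and DESeq2 on recovered reads each called 1 higher. Itgb4 fell by 1.61 ± 0.19 on the log2 scale (adjusted p = 0.000449), and the call was kept without each single library. Lama1, Lamb3 and Lamc1, all with rises in luminal cells described below, had basal differences of 0.72 ± 0.59, 0.14 ± 0.24 and 0.66 ± 0.25 (adjusted p = 0.709, 0.902 and 0.223). Against adults, 7 members were higher in pregnancy basal cells and 0 lower (limma; 2.92% and 4.34% of all genes; 3 lower at an unadjusted p under 0.05, 0 by edgeR and 2 by DESeq2): Lama2 (2.71 ± 0.65), Lamc1 (1.76 ± 0.25, adjusted p = 0.00125), Itgb3 (1.55 ± 0.33), Lamb1 (1.36 ± 0.22), Lama4 (1.33 ± 0.21), Itga3 (0.83 ± 0.17) and Itga6 (0.76 ± 0.17). Of these, Lamc1 and Lama4 were called without each single library of these groups. Without adult basal replicate 2 the other 5 were lost, among them Lamb1 at 1.20 (adjusted p = 0.0529) and Itga6 at 0.61 (0.199). Counts fell to 3 calls without pregnancy basal replicate 1, to 4 without replicate 2 and to 6 without adult basal replicate 1. Summed fibroblast markers were 158516 and 145681 in pregnancy basal libraries, above all other libraries, and their part was not tested.

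In ER- luminal cells, 5 members were higher in pregnancy than at puberty and 2 lower, where 8.78% and 6.04% of all genes were called. Lama1 rose from 322 and 190 to 3365 and 3868 (3.86 ± 0.59, adjusted p = 0.002), and Lamc3 from 35 and 8 to 118 and 151 (2.90 ± 0.53). Lamb3 rose from 1175 and 1113 to 3415 and 4446 (1.77 ± 0.24, adjusted p = 0.000262), and Itga6 from 8621 and 6524 to 15440 and 16510 (1.09 ± 0.17, adjusted p = 0.000829). Itgb3 fell from 1156 and 1007 to 283 and 226 (-2.09 ± 0.33, adjusted p = 0.000937). No library of the stages overlapped for these 5, but overlap was not counted over all genes, so this adds nothing to the calls. Itga10 (1.67 ± 0.51) and Itgb5 (-0.76 ± 0.20) were called as well, but lost the call without puberty ER- replicate 2, at adjusted p of 0.184 and 0.148. Itga10 was lost without each library of both groups and without pregnancy basal replicate 2, and Itgb5 also without puberty ER- replicate 1 or pregnancy ER- replicate 1. Against adults, 6 were higher and 0 lower (limma; 8.89% and 5.51% of all genes; 2 lower at an unadjusted p under 0.05, 0 by edgeR and 2 by DESeq2): Itga1 (3.76 ± 1.04), Lama1 (3.02 ± 0.59), Lamb3 (2.19 ± 0.24, adjusted p = 5.38e-05), Lamc1 (1.11 ± 0.25), Itga6 (1.02 ± 0.17) and Lamb1 (0.81 ± 0.22). Without pregnancy ER- replicate 2, 2 of the 6 were kept, and without adult ER- replicate 2, 3 were kept. Lamb3 and Itga6 were not lost without any single library. In the same comparison 4 of 8 endothelial (median difference 3.65), 3 of 8 basal (median 2.87) and 1 of 6 pericyte markers were called higher in pregnancy, and their part was not tested.

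In ER+ luminal cells, 8 members were higher in pregnancy than at puberty and 3 lower, where 7.34% and 5.73% of all genes were called; without pregnancy ER+ replicate 2 they were 8 and 2. Laminin chains made up 6 of the 8. Lama1 rose from 340 and 83 to 2888 and 2513 (3.99 ± 0.59, adjusted p = 0.00119), and Lamc3 from 42 and 26 to 237 and 204 (2.70 ± 0.53). Lamb3 rose from 471 and 313 to 1569 and 2632 (2.40 ± 0.24, adjusted p = 1.44e-05). Rises were smaller for Lamc1, from 3624 and 3616 to 15626 and 7866 (1.61 ± 0.25), Lamb1, from 1014 and 1312 to 3512 and 2258 (1.29 ± 0.22), and Lama4, from 692 and 582 to 1245 and 1040 (0.84 ± 0.21). Without pregnancy ER+ replicate 2 the rises were 4.09 ± 0.76, 2.80 ± 0.67, 2.03 ± 0.25, 2.11 ± 0.20, 1.61 ± 0.24 and 0.97 ± 0.26. The Lama4 call was lost without puberty ER+ replicate 2 (0.72, adjusted p = 0.136) or pregnancy ER+ replicate 1 (0.71, adjusted p = 0.106). Itgb8 rose from 431 and 233 to 942 and 2061 (2.13 ± 0.41, adjusted p = 0.00395), or by 1.57 ± 0.42 (adjusted p = 0.0444) without replicate 2, the library whose ER- marker sum was 110074. The call was lost without puberty ER+ replicate 2 (1.69, adjusted p = 0.0502). Itgax, a leukocyte alpha chain, went from 0 and 3 to 47 and 94. Among the lower were Itga3 (3713 and 4485 to 2511 and 1712, -0.98 ± 0.17) and Itgb3 (-1.12 ± 0.33). Itgb3 lost the call without puberty ER+ replicate 1 (-0.53, adjusted p = 0.371), without each pregnancy ER+ library (replicate 2: -0.95, adjusted p = 0.231) and without each pregnancy basal library. Without replicate 2, Itga3 was at -0.70 ± 0.17. Lama3 was not called (1.40 ± 0.48, adjusted p = 0.0824), while Lamb3 was.

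Against adults, 14 members were higher in pregnancy ER+ cells and 2 lower (12.8% and 5.05% of all genes), and 10 and 0 without pregnancy ER+ replicate 2. Lamb3 (2.56 ± 0.24), Lama4 (2.99 ± 0.21), Lamb1 (2.35 ± 0.22), Lamc1 (1.84 ± 0.25), Lama1 (3.75 ± 0.59), Lamc3 (2.58 ± 0.53), Itgb8 (2.24 ± 0.41) and Itga6 (0.85 ± 0.17) were called with and without that library, as was Lama2 (2.89 ± 0.65). Among the calls lost without it were those of Lama3, Itga1, Itga4, Itga8, Itgax and Itga3, at adjusted p of 0.0551, 0.123, 0.0903, 0.0542, 0.248 and 0.378, and Itgb1 (0.47 ± 0.13) was gained. Each of the other 3 libraries of the comparison, when left out, left 11 of the 16 calls. Beside these, 5 of 8 basal, 5 of 8 fibroblast, 4 of 8 endothelial, 3 of 6 pericyte and 5 of 8 ER- luminal markers were called higher in pregnancy ER+ cells. Without pregnancy ER+ replicate 2 these were 1, 3, 2, 3 and 1, and their part in the members' values was not tested.

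Basal markers were among the genes higher in luminal cells in pregnancy, with 4 of 8 called against puberty in ER- and 5 of 8 in ER+ cells, the latter 2 of 8 without pregnancy ER+ replicate 2. Set against the basal mean of the same stage, the 8 markers were at 1.22% to 4.56% in ER- and 0.811% to 3.51% in ER+ cells at puberty, and at 9.41% to 32.0% (median 10.5%) and 7.07% to 19.2% (median 8.15%) in pregnancy. Lama1, Lamc3, Lama3 and Lamb1 in pregnancy were at 13.2%, 9.93%, 11.5% and 15.5% of basal in ER- cells, within that range, and at 9.82%, 16.3%, 8.01% and 20.1% in ER+ cells, where Lamb1 was just above it. Lamb3 was at 43.5% in ER- and 23.2% in ER+ cells, above all 8 markers in both, from 13.9% and 4.75% at puberty. Oxtr, the oxytocin receptor gene, was the marker at 32.0% and 19.2%; the other 7 were at 14.4% or less in ER- and 10.3% or less in ER+ cells. Lamc1 was at 17.7% and 30.5%, and Itga6 at 46.4% and 42.7%. Itgb4 was at 190% in ER- and 164% in ER+ cells, from 63.4% and 67.4%, and Itgb8 in ER+ cells went from 10.6% to 78.6%. In pregnancy ER+ replicate 1 alone Itgb8 was at 49.3%, Lamc1 at 40.6%, Itga6 at 43.7% and Itgb4 at 158%. There the 8 markers were at 8.80% to 15.9% (median 9.54%), with Lama1 at 10.5% and Lama3 at 9.73% within that range and Lamb3 (17.3%), Lamc3 (17.5%) and Lamb1 (24.5%) above it. The part of basal RNA in the luminal values was not tested.

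**Figure D4:**
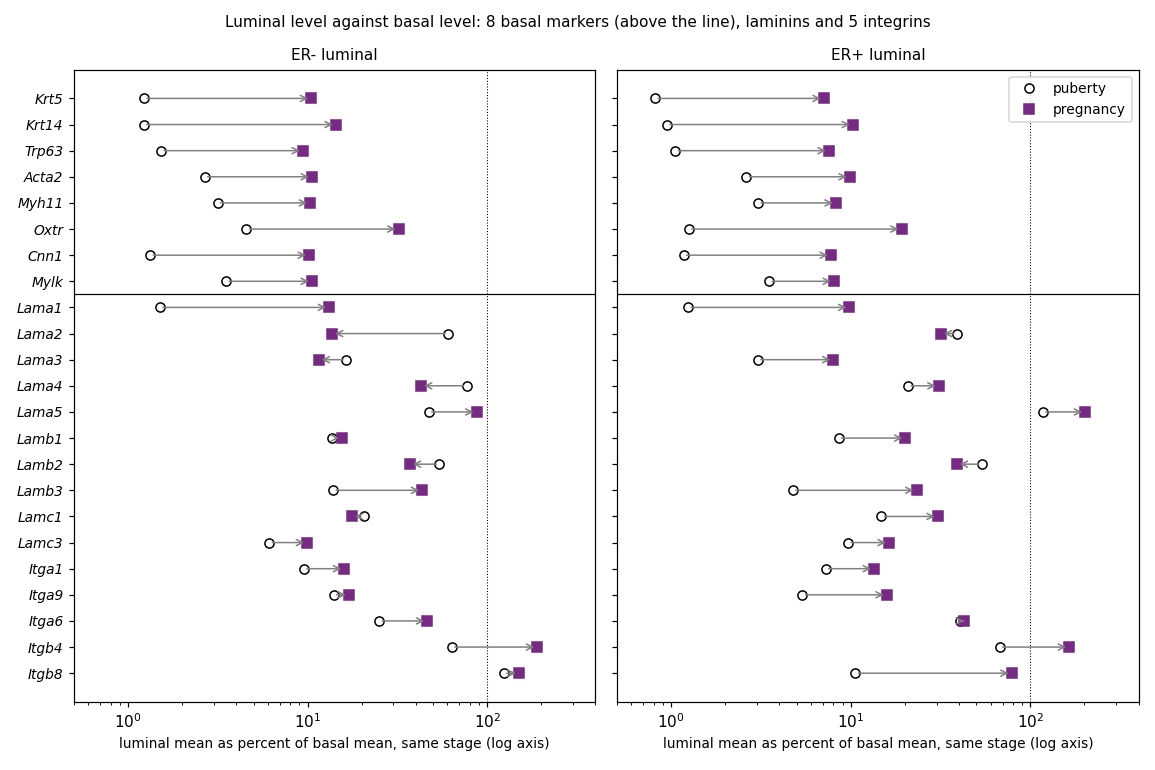
Mean of the luminal libraries as percent of the basal mean of the same stage, on a log axis, at puberty (open circles) and in pregnancy (squares), for 8 basal marker genes, 10 laminins and 5 integrins, with ER- and ER+ cells in separate panels. Lamb3 in pregnancy, at 43.5% and 23.2%, lies to the right of all 8 markers; squares of ER+ cells are means of both libraries, and replicate 1 alone puts Lamb3 at 17.3% and Itgb8 at 49.3%.

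Tests of the difference between the changes called 5 member results. Between basal and luminal cells the pregnancy-puberty change differed for 1 member in the higher and 2 in the lower direction, where 0.255% and 0.488% of all genes were called. Itgb3 was higher by 2.31 ± 0.41 (adjusted p = 0.0162), with basal values of 1668 and 1202 going to 2289 and 2332 while luminal ones fell. Itgb4 was lower by 1.44 ± 0.23 (-1.44, adjusted p = 0.00783), its luminal values changing by -0.02 ± 0.19 (ER-) and -0.33 ± 0.19 (ER+). Lamb3 differed by -1.95 ± 0.29 (adjusted p = 0.00585), with luminal rises beside a basal difference that was not called. All 3 were kept without pregnancy ER+ luminal replicate 2 and none was kept without pregnancy basal replicate 1 or replicate 2 (adjusted p of 0.0546 to 0.119). Without puberty basal replicate 1 only the Lamb3 call was kept, and Itgb3 was also lost without puberty basal replicate 2 or pregnancy ER- replicate 2. Between ER+ and ER- cells, 2 members had a higher change in ER+ cells and 0 a lower one (limma; 1.47% and 0.847% of all genes; 3 lower at an unadjusted p under 0.05, 0 by edgeR and 1 by DESeq2): Itgb8 by 2.59 ± 0.57 (adjusted p = 0.0373) and Lama4 by 1.41 ± 0.30 (adjusted p = 0.0208). Without pregnancy ER+ replicate 2, Itgb8 lost the call (2.02 ± 0.54, adjusted p = 0.0991), Lama4 kept it (1.54 ± 0.33), and Lamc1 (1.66 ± 0.26, adjusted p = 0.00558) and Lamb1 (1.34 ± 0.31) were called. Neither of the 2 calls was kept without puberty ER+ replicate 2 or any single library of the ER- groups compared. Itgb8 was also lost without each adult basal, pregnancy basal or adult ER- library, at adjusted p of 0.0508 to 0.0543, and Lama4 was also lost without pregnancy ER+ replicate 1 (1.28, adjusted p = 0.0694).

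**Figure D5:**
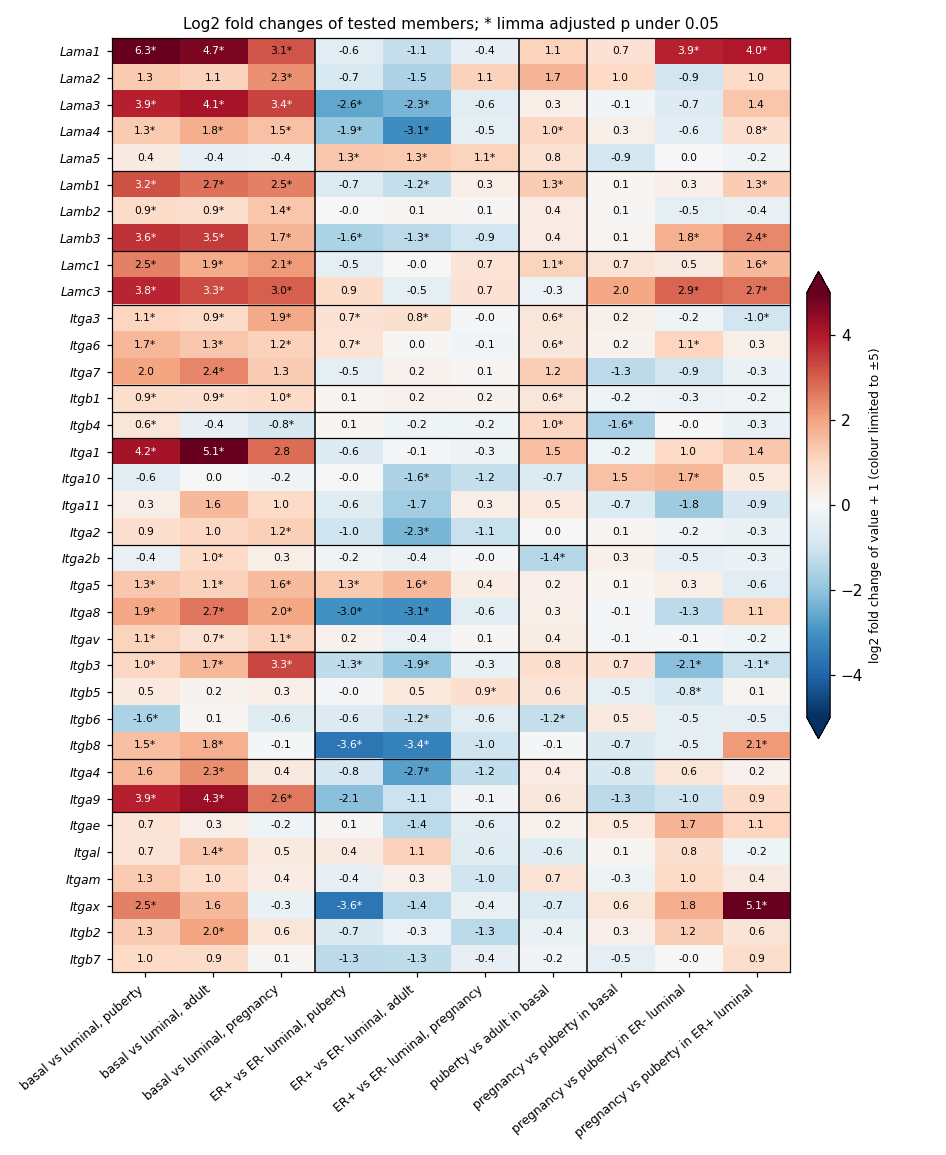
Log2 fold changes of tested members (rows) as a colour map in 10 comparisons (columns): basal against luminal and ER+ against ER- luminal cells within each stage, puberty against adult in basal cells, and pregnancy against puberty in each population. Stars mark a limma adjusted p under 0.05; Itgb4 has the 1 star in the column of basal pregnancy against puberty and is called in opposite directions between basal and luminal cells at puberty (0.62) and in pregnancy (-0.82).

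Genes that work with laminins and integrins were read from 3 lists. Of 10 hemidesmosome and non-integrin laminin receptor genes, 8 were higher and 1 lower in basal than in luminal cells (20.9% and 21.5% of all genes), led by Col17a1, a hemidesmosome collagen (4.69 ± 0.19, adjusted p = 1.64e-09). Between pregnancy and puberty 0 of the 10 were called higher and 2 lower in basal cells (0.668% and 1.40% of all genes), the laminin receptor Bcam (-1.17 ± 0.21) and Cd151 (-0.73 ± 0.17), a tetraspanin that binds laminin-binding integrins. In ER- cells 2 were higher and 2 lower (8.78% and 6.04% of all genes), with Bcam at -1.31 ± 0.21 and the syndecan Sdc4 at -1.22 ± 0.20. In ER+ cells 1 was higher and 3 lower (7.34% and 5.73%), with the syndecan Sdc1 at -1.70 ± 0.22 and the cytolinker Plec at -1.52 ± 0.17. Sdc1 went from 3799 and 5031 to 1482 and 1228, and Plec from 32238 and 29972 to 12077 and 9778. All calls of partner genes that involve pregnancy ER+ cells include replicate 2 of that group, and none is given without it. Col17a1 rose by 2.31 ± 0.39 (ER-) and 1.74 ± 0.39 (ER+), to 10.4% and 8.0% of its basal level, beside medians of 10.5% and 8.15% for the 8 basal markers. In pregnancy ER+ replicate 1 alone Col17a1 was at 8.7%, beside a marker median of 9.54%. Its change differed between basal and luminal cells by -2.53 ± 0.48 (adjusted p = 0.0325). Of 14 basement membrane partners, 12 were higher in basal cells and 1 lower, with Col18a1 at 3.83 ± 0.30, Col4a2 at 3.69 ± 0.20 and Col4a1 at 3.51 ± 0.21. Ntn4, netrin-4, which disrupts laminin networks by binding the gamma 1 chain, was lower in pregnancy than at puberty in all 3 populations, by -3.32 ± 0.58 in basal, -3.82 ± 0.58 in ER- and -2.83 ± 0.58 in ER+ cells. Of the 14, 9 were higher and 2 lower in pregnancy than in adult ER+ cells (12.8% and 5.05% of all genes), and 6 higher and 0 lower in puberty than in adult basal cells (4.58% and 5.15%). Of 23 tested focal adhesion and signalling genes, 16 were higher and 4 lower in basal cells, among them Tns1 (3.21 ± 0.37) and Flna (2.73 ± 0.16), which link integrins to actin. Between ER+ and ER- cells 2 were higher and 7 lower (10.3% and 15.2% of all genes), led by Tns3 (-1.75 ± 0.19) and Tln2 (-1.45 ± 0.18).

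Integrin genes of leukocytes were read at low levels. Itgae, Itgal, Itgam and Itgb7 did not exceed 126 in any library, Itgax 94 and Itgb2, the common leukocyte beta chain, 266, against leukocyte marker sums of 553 to 6124. Over stages Itgb2 (1.28 ± 0.30), Itgax (1.26 ± 0.37) and Itgal (0.83 ± 0.28) were called higher in basal cells with overlapping libraries. The Itgax call was lost without pregnancy basal replicate 2 (1.11, adjusted p = 0.0526), and that of Itgal without puberty basal replicate 2 (0.68, adjusted p = 0.103), adult basal replicate 2 (0.81, adjusted p = 0.0630) or pregnancy basal replicate 1 (0.77, adjusted p = 0.0789). Itga4, shared by leukocytes and other cells, read 293 and 328, 189 and 286, and 152 and 209 in basal libraries, 67 to 255 in ER- and 9 to 145 in ER+ libraries. Itga10, Itgam and Itgad share 33.5%, 68.7% and 19.7% of their exon bases with other genes, so their values are uncertain, those of Itgam also because its 8 rows differ. Itga11, a stromal collagen receptor chain, was highest in puberty ER- replicate 2, at 371, the ER- library with the highest fibroblast sum (66188). Other libraries with high fibroblast sums had less. Itga11 read 80 and 70 in pregnancy basal libraries (sums of 158516 and 145681). It read 60 in pregnancy ER+ replicate 1 (81506) and 101 in puberty ER+ replicate 2 (61155).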

How the data were processed

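The deposited signal is a whole number for each gene in each library. Library totals of about 20000000 and library-specific steps between low values show read counts scaled to a common total and rounded up by the authors. Per the submitters' processing notes, STAR, Picard, HTSeq and GRCm38 were used; no source used here gives settings, annotation release or use of strand. Per the labels' protocols, RNeasy micro kits and the Ovation Solo system were used on sorted cells. Of 46868 rows, 790 repeated 179 gene IDs, and the row with the highest mean was kept. Reads were recovered by inverting the rounding, which returned 99.76% to 99.95% of values above 0 exactly; 1 read was worth 1.75 to 8.25.

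limma 3.58.1 (R 4.3.3, trend and robust empirical Bayes) was fitted to log2(value + 1) of the 22315 genes that reached 10 in 2 or more of the 18 libraries, with 9 group means, which leaves 9 residual degrees of freedom; p-values are 2-sided with Benjamini-Hochberg adjustment over all genes. Adding 1 shrinks the fold changes of low genes. As differences of mean logs, fold changes can also lie above or below ratios of group means where replicates are uneven. The fit was also run on simulated counts with independent libraries and the same dispersion for all genes. These held no sets and no mixed cells, so that run cannot speak to such features of the libraries here. Members and lists were chosen with earlier results of these data known. By the naming rule every member may be named, with library values for chains of laminin-332 and laminin-511, Lama1, Lama2, Lama4, Lamb2, the laminin-binding integrins, Itga2 and up to 4 called members with the largest change per comparison, and up to 3 genes per list of partners; the text prints a part of these, and 1 member that enters the counts is not reported here. Comparisons within single stages, and values without pregnancy ER+ luminal replicate 2 within pregnancy, for markers and for percents, were added after seeing the data. Same-numbered libraries deviated together in the puberty luminal groups (correlation 0.269), the 1 of 36 pairs of groups over 0.1 (lowest -0.0884), so numbers were not taken to pair libraries. Alternatives were other pseudocounts, filters, scalings and priors, the compared groups alone, a replicate block, removal of stages or single libraries, and edgeR 4.0.16 and DESeq2 1.42.0 on recovered reads. Positions are of GENCODE vM21, promoters of RefSeq. Python 3.11.15 with matplotlib 3.10.9, numpy 2.4.6 and pandas 2.3.3 made tables and figures.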

Additional observations from a re-analysis of the deposited data

Results flagged for a closer look

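5 results stood out because the change between puberty and pregnancy differed between populations by a test of the difference itself (limma, log2 scale). Between basal and luminal cells, Itgb3 differed by 2.31, Itgb4 by -1.44 and Lamb3 by -1.95. Between ER+ and ER- luminal cells, Itgb8 differed by 2.59 and Lama4 by 1.41. Each rests on changes between libraries of different sets. A set effect shared by the populations would cancel in these differences, but one that differs between populations cannot be told apart from stage. Each call was lost without at least 1 single library, as given above. No group held the 4 or more libraries needed to look for a library far from the others.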

How the results depend on the processing

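The limma fit made 107 calls of members over 11 comparisons, leaving aside the 6 within single stages. In 3172 recalculations of them, 2942 kept the call, 230 lost it and 0 reversed it. Of the 107, 60 kept the call under every alternative but the compared groups alone. With the compared groups alone, 43 calls were kept and 19 lost, and the comparisons over stages were not refitted that way. The counts of members that moved by over 1.5 times follow, as higher or lower calls, and their cause was not tested. They stand without the share of all genes called under the same setting, so they cannot be read as particular to the members. Basal against luminal cells had 0 lower within adults and 2 lower within pregnancy without pregnancy ER+ luminal replicate 2. ER+ against ER- cells had 3 higher without the 6 adult libraries, 7 lower within puberty, 2 higher and 0 lower within pregnancy, and 3 and 1 there without that library. With the compared groups alone, pregnancy against puberty gave 4 higher and 6 lower in basal, 8 and 6 in ER-, and 1 lower in ER+ cells. Pregnancy against adult then gave 1 lower in basal, 1 lower in ER-, and 7 higher and 0 lower in ER+ cells. Puberty against adult gave 4 and 0, and the ER+ minus ER- difference 1 higher. Pseudocounts of 4 and 16 each gave 1 higher for pregnancy against puberty in basal cells. Quantile normalization gave 5 lower (pregnancy against puberty, ER-), 2 lower (against adult, basal), 1 lower (against adult, ER-) and 2 higher (basal minus luminal difference), and median-ratio size factors 6 lower (pregnancy against puberty, ER-), 2 lower (against adult, ER-) and 2 higher (basal minus luminal difference). Without trend and robust fitting there were 1 lower (pregnancy against puberty, ER-), 0 lower (against adult, ER+), 3 higher and 1 lower (puberty against adult), and 0 for both differences. On recovered reads, edgeR gave 1 higher (pregnancy against puberty, basal), 7 lower (ER-), 11 higher (against adult, basal), 1 lower (against adult, ER+) and 2 higher (basal minus luminal difference). DESeq2 gave 1 higher and 2 lower (pregnancy against puberty, basal), 8 lower (ER-), 5 lower (ER+), 11 higher and 2 lower (against adult, basal), 2 lower (against adult, ER-), 12 higher (puberty against adult), 3 higher and 4 lower (basal minus luminal difference), and 7 higher and 1 lower (ER+ minus ER-). A replicate block gave 1 lower for pregnancy against adult in ER- cells and lost none of the 107 calls. Whether replicate numbers pair libraries within a stage is not known. Leaving out single libraries gave ranges, higher and lower, of 25 to 29 and 1 to 2 (basal against luminal) and 5 to 6 and 11 to 15 (ER+ against ER-). For pregnancy against puberty they were 0 to 1 and 1 to 2 (basal), 4 to 5 and 1 to 3 (ER-), and 6 to 11 and 2 to 3 (ER+). For pregnancy against adult they were 2 to 8 and 0 to 1 (basal), 2 to 7 and 0 to 1 (ER-), and 9 to 15 and 0 to 2 (ER+). Puberty against adult gave 0 to 8 and 0 to 2, the basal minus luminal difference 0 to 2 and 0 to 3, and the ER+ minus ER- difference 0 to 5 and 0 to 2. With 2 libraries a group and 2406221 to 3165232 reads in adult luminal libraries, low members such as Itga1, Itga7 and Lamc3 rest on few reads there.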
